A study of Mus musculus with 6 samples.

Results

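The insulin-like growth factor (IGF) ligands, receptors and binding proteins were followed in suspension-arrested mouse myoblasts carrying a PRDM2 shRNA or a control shRNA. The members are Igf1, Igf2, Igf1r, Igf2r, Igfbp2, Igfbp3, Igfbp4, Igfbp5, Igfbp6 and Igfbp7, a set defined by gene name. Every probe set whose annotation gives exactly 1 of these symbols was taken, which gave 28 of 34945 probe sets with a single symbol, for 10 of 18193 genes. The cells were C2C12, a mouse myoblast line that leaves the cell cycle in suspension and fuses into myotubes when it differentiates. The 3 samples labelled as knockdown, called knockdown here, came from a stable pool transfected with PRDM2 shRNA, and the 3 control samples from a stable pool transfected with GFP shRNA. PRDM2 carries a PR/SET domain and zinc fingers. Cells of both groups had been held for 48 hours in methylcellulose suspension medium with 20% fetal calf serum to bring them to G0, the quiescent state. The labels call the samples biological replicates of a pool and do not say whether any pool was made more than once, so the p-values measure the spread between these samples only.

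IGF-I and IGF-II are small secreted proteins that signal through the receptor tyrosine kinase encoded by Igf1r, and from there through insulin receptor substrates, phosphoinositide 3-kinase and AKT. The receptor encoded by Igf2r, also the cation-independent mannose 6-phosphate receptor, takes up IGF-II for degradation and sends no kinase signal. The binding proteins hold IGFs outside the cell, and proteases release them again. In muscle cells IGF-II is made by the differentiating myoblasts themselves and promotes their differentiation.

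Promoter sequences are shown for the 5 genes with a probe set that passed the test, since the results turn on these genes. RefSeq's promoter table (build GRCm38.p6) matched all 10 members by symbol, with 14 windows among them, 4 of these for Igf2. Each sequence is the 250 bases before an annotated start, 5' to 3' on the gene's strand. Capitals mark an E-box (CANNTG), the site class read by MyoD family factors, a TATA box (TATAAA), a GC box (GGGCGG) or a CCAAT box (CCAAT), searched on both strands. For Igf2 the farthest upstream and the farthest downstream of the 4 starts are shown, and the arrays do not say which start was used.
Igf2 farthest upstream start, chr7:142666817-142667066, minus strand: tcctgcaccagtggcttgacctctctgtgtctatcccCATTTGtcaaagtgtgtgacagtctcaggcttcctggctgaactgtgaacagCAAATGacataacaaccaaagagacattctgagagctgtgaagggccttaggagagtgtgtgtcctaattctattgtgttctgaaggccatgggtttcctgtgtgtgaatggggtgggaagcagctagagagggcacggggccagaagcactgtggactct
Igf2 farthest downstream start, chr7:142657497-142657746, minus strand: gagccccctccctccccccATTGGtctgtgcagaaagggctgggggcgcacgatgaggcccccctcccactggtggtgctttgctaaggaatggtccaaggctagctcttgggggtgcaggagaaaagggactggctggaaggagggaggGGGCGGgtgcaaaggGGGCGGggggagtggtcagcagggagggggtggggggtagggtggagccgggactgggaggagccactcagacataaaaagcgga
Igf1r, chr7:67952007-67952256, plus strand: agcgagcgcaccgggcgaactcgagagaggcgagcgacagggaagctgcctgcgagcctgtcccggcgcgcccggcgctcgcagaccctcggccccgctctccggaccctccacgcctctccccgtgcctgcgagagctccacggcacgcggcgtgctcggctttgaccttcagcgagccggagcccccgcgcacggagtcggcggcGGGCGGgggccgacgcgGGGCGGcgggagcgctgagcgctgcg
Igfbp3, chr11:7213924-7214173, minus strand: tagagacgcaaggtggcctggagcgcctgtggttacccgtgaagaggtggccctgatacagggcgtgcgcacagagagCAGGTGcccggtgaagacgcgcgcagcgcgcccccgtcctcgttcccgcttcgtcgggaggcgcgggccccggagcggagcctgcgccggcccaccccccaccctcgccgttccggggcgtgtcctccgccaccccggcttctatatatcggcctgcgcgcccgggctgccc
Igfbp4, chr11:99040994-99041243, plus strand: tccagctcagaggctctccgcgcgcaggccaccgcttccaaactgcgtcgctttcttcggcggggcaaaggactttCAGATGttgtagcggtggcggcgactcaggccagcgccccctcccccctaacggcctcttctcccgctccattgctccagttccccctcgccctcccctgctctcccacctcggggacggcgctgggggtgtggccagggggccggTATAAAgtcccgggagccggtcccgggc
Igfbp7, chr5:77408046-77408295, minus strand: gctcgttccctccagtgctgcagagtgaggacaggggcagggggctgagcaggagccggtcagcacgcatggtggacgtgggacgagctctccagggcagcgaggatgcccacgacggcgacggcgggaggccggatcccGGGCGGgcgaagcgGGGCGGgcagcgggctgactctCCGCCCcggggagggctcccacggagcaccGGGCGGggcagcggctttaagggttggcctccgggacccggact
The window of Igfbp4 holds a TATA box that begins 28 bases before the start, and that of Igfbp7 holds 4 GC boxes and no E-box. Over the 14 windows of all members, 9 held an E-box, 2 a TATA box, 6 a GC box and 3 a CCAAT box. Among all 32851 windows of the same length the shares were 66.2%, 12.4%, 32.7% and 33.8%. These matches describe letters and not binding, and the several windows of 1 gene are not independent.

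The arrays gave 1 intensity per probe set in arbitrary units, with medians between 10.6 and 12.1. At the probe set that represents Prdm2, the gene the shRNA targets, control arrays 1, 2 and 3 gave intensities of 86.2, 73.6 and 47.1, and knockdown arrays 58.0, 51.5 and 29.0. These values overlapped (log2 difference -0.51, SE 0.217, limma adjusted p = 0.400). Another Prdm2 probe set had means of 73.0 and 37.5, again with overlap (log2 difference -0.75, SE 0.331, limma adjusted p = 0.433). The third was near background, at 6.51 and 7.84. None of the 3 Prdm2 probe sets passed, so the arrays do not show a loss of Prdm2 transcript beyond the spread between samples. Control array 3 had a Gapdh 5' to 3' control ratio of 0.0992, against 0.704 to 1.14 elsewhere. Its Actb 5' to 3' control ratio was also the lowest, at 0.114 against 0.299 to 0.723. Array 3 of each group had Dap spike signals of 39.9 and 38.8, against 126 to 254 on the other arrays. The myoblast markers Myod1 and Des read 165 ± 63.5 and 977 ± 125 in the control and 243 ± 66.5 and 789 ± 147 in the knockdown (SD, n = 3), and both were detected on every array. Of 6 myoblast markers 2 rose, Itga7 and Vcam1 (log2 differences 0.63 and 2.36), and 1 fell, Myf5 (-1.29). Summed intensities of the 6 were 1397 to 1709 in the control and 1598 to 2059 in the knockdown, with Des the brightest on every array. Most markers of differentiated muscle moved with the groups: 6 of 7 rose. Ckm did not pass and was lower, at 81.1 in the control and 51.0 in the knockdown (log2 difference -0.58). The 7 markers together summed to 181 to 313 on control arrays and 5078 to 6436 on knockdown arrays. Their part in the IGF results below was not tested, and in bulk samples a larger share of differentiating cells and more RNA per cell cannot be told apart. No marker of fibroblasts, macrophages, endothelium, adipocytes, hepatocytes or neurons passed. Summed fibroblast markers were 212 to 509 in the control and 515 to 681 in the knockdown, macrophage markers 123 to 246 and 74.2 to 125, and hepatocyte markers 21.8 to 27.4 and 29.6 to 44.8. For hepatocytes and for adipocytes 3 of 4 listed markers were measured. Among the hepatocyte markers Apoa1 read 12.1 in the control and 25.6 in the knockdown. Alb and Ttr were lower in the knockdown, at 3.37 and 2.41 and at 9.37 and 8.06. Summed endothelial markers were 14.3 to 26.8 and 14.3 to 18.9, adipocyte markers 9.40 to 22.8 and 17.5 to 24.5, and neuronal markers 17.5 to 21.5 and 19.1 to 22.4. Of the 4 macrophage markers Ptprc was at background, at 1.09 in the control and 1.82 in the knockdown, while Csf1r read 113 and 61.9, Cd68 24.9 and 13.0 and Adgre1 33.0 and 25.6.

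In the knockdown Igf2 and the binding protein gene Igfbp4 were higher, and Igfbp3 was lower, near background. Igfbp7 and 1 probe set of the receptor gene Igf1r were also higher, but these calls were lost in most alternatives at the brightest probe set of each. Of the 28 probe sets, 9 rose, 2 fell and 17 did not pass limma's test at the 0.05 threshold, adjusted over all 34945 probe sets. Over all probe sets, 1.81% rose and 1.29% fell. The members were chosen with earlier results of these data known, so these shares are given for scale and not as a test. The 9 probe sets that rose belong to 4 genes and the 2 that fell to 1, and the other 5 genes had none that passed. Many of them share a gene, and for Igfbp4 also the sequence they were designed on, so the count of probe sets is not a count of independent measurements.

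After normalization all knockdown values lay above all control values at 10 of the 28 probe sets, against 9.84% of all probe sets, and below them at 3, against 8.18%. The third of those below, Igfbp2, overlapped in the deposited intensities. For each of these 13 the exact two-sided permutation p was 0.1, the smallest that 3 arrays against 3 can give. The median size of the log2 difference, whatever its sign, was 0.66 over the 28 probe sets and 0.12 over all probe sets, of which 55.1% to 58.2% lay below an intensity of 16 on each array. Before log2 an offset of 16 was added to every intensity, so differences of dim probe sets are understated. Of the 28, 22 had a group mean of at least 16 in at least 1 group and 6 did not.

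**Figure D1:**
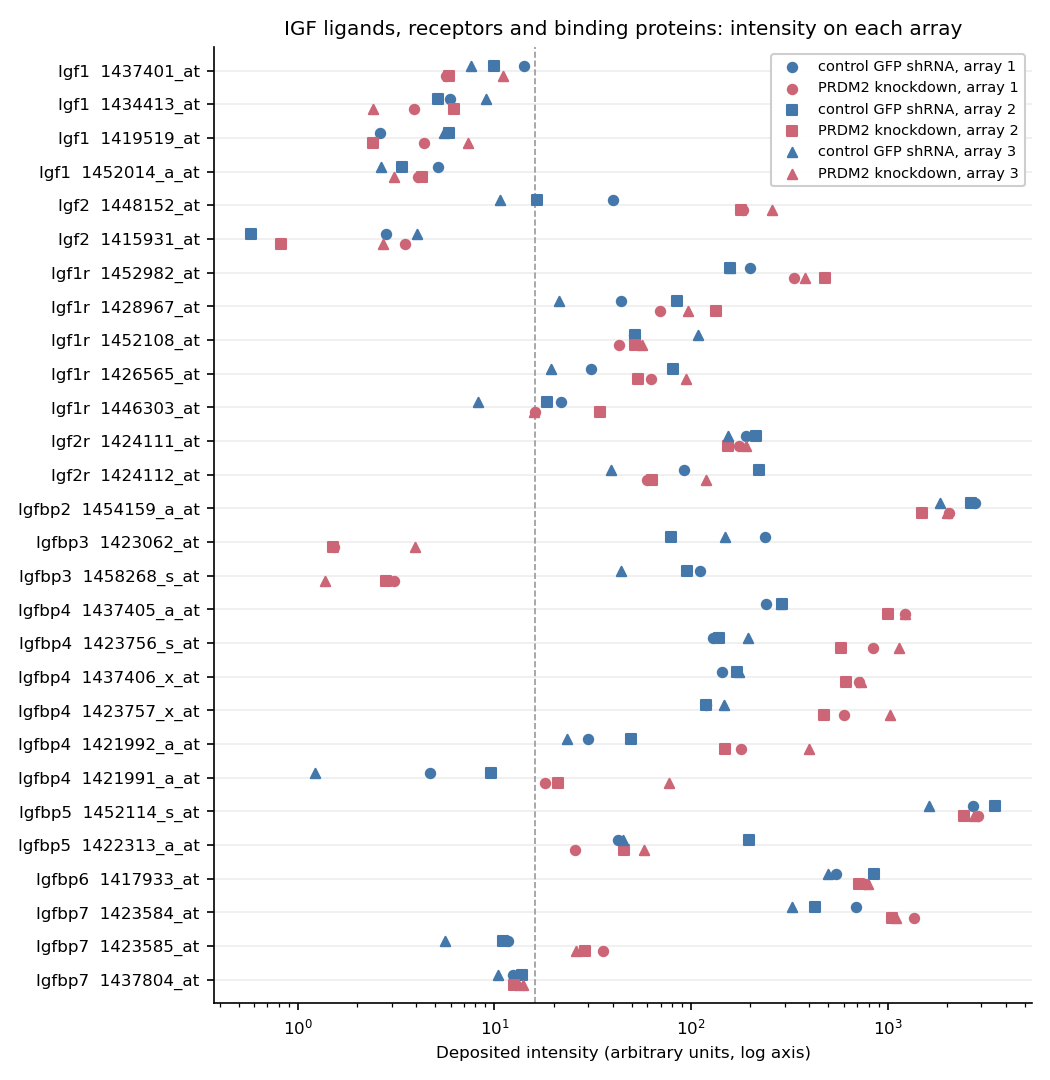
Deposited intensity (arbitrary units, log axis) of the 28 IGF probe sets on each of the 6 arrays, blue for control and red for knockdown, with a marker shape for each array number and the offset of 16 as a dashed line. The knockdown points of Igf2 1448152_at, all Igfbp4 probe sets and 2 of the 3 Igfbp7 probe sets lie to the right of the control points, those of both Igfbp3 probe sets far to the left.

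Igf2, the ligand that myoblasts make as they differentiate, had intensities of 39.9, 16.6 and 10.7 on control arrays 1, 2 and 3 at probe set 1448152_at. On knockdown arrays 1, 2 and 3 it read 183, 179 and 257. Every knockdown array was above every control array, and control array 1 was the highest of the controls. The means were 22.4 ± 15.4 and 206 ± 43.5 (SD, n = 3), a ratio of 9.22 between deposited means. On the log2 scale with the offset, Igf2 rose by 2.55 (SE 0.298, 95% confidence interval 1.83 to 3.26, limma adjusted p = 0.00965), which is 5.84-fold. With an offset of 1 the difference was 3.29, and with an offset of 64 it was 1.61. Without knockdown array 1 or 3 the adjusted p was 0.0507 or 0.0501, and over the alternatives it ranged from 0.000577 to 0.114. The other Igf2 probe set, 1415931_at, was at background throughout, at 0.58 to 4.02 over the 6 arrays, and says nothing of a change.

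Igf1, the other ligand, gave only low signals. Its 4 probe sets read 2.60 to 14.2 on control arrays and 2.41 to 11.0 on knockdown arrays, all below the offset in both group means. Their log2 differences lay between -0.17 and 0.01, with the groups overlapping at each. At this signal a change in Igf1 was not measurable.

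Igf1r, the signalling receptor, was measured by 5 probe sets designed on 3 sequences, and they differed from each other. At 1452982_at control arrays read 198, 158 and 158 and knockdown arrays 335, 483 and 379. These groups were apart, and the log2 difference was 1.05 (SE 0.164, 95% confidence interval 0.65 to 1.44, limma adjusted p = 0.0258). At 1428967_at, designed on the same sequence, control arrays gave 44.2, 84.4 and 21.3 and knockdown arrays 69.1, 134 and 96.2. Here control array 2 lay inside the knockdown range, and the difference was 0.83 (95% confidence interval -0.03 to 1.70, limma adjusted p = 0.414). The pair 1426565_at and 1452108_at, also designed on 1 sequence, differed in sign, at 0.58 and -0.39, and neither passed. At 1452108_at control array 3, the array with the low Gapdh ratio, read 109 against 51.3 and 51.7 on the other controls and 43.2 to 56.6 on knockdown arrays. The part of that ratio in this reading was not tested. The remaining probe set, 1446303_at, differed by 0.26.

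The call for Igf1r was lost in 11 of 17 alternatives. With all arrays kept it was lost with the replicate number as a block (limma adjusted p = 0.101) or with array 3 of each group set apart as a block (0.0521). The latter block was drawn from the Dap spike signal and not from the labels. The call was also lost with the Gapdh covariate (limma adjusted p = 0.0595) and with offsets of 1 and 64 (0.0839 and 0.0518). It was also lost without control array 1, 2 or 3 (limma adjusted p = 0.0841, 0.0601 and 0.0754) and without knockdown array 2 or 3 (0.0672 and 0.105). Over the alternatives the adjusted p of 1452982_at ranged from 0.0156 to 0.219, while the difference without 1 array stayed between 0.90 and 1.18. Averaged over its 5 probe sets, Igf1r differed by 0.47 with an adjusted p of 0.132 over genes in limma.

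Igf2r, the receptor that clears IGF-II, did not pass at either probe set. At 1424111_at control arrays read 191, 214 and 154 and knockdown arrays 176, 154 and 190, which overlap almost fully. The log2 difference was -0.18, with a 95% confidence interval of -0.44 to 0.08. At 1424112_at the controls alone spread from 39.2 to 222, and the interval of -1.53 to 0.84 covers large changes either way.

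Igfbp3, the main IGF carrier in blood, also made by myoblasts, was the member that fell. At 1423062_at control arrays gave 237, 78.8 and 149, and knockdown arrays 1.52, 1.50 and 3.96. At 1458268_s_at control arrays gave 111, 95.3 and 43.8, and knockdown arrays 3.08, 2.80 and 1.38. All 6 knockdown readings are near background, and the lowest control reading stood far above the highest of them at each probe set. The knockdown mean was 1.50% of the control mean at the first probe set and 2.90% at the second. On the log2 scale with the offset Igfbp3 fell by 3.15 (SE 0.353, 95% confidence interval -4.00 to -2.30, limma adjusted p = 0.00833) and by 2.39 (SE 0.230, 95% confidence interval -2.94 to -1.83, limma adjusted p = 0.00492).

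The size of the fall in Igfbp3 depends on the offset, since the knockdown signal is at background. With an offset of 1 the differences were -5.53 and -4.60, and with an offset of 64 they were -1.69 and -1.13. The call at 1458268_s_at held in all 17 alternatives, with adjusted p up to 0.0355. At 1423062_at the call was lost in 3 of 17 alternatives. These were an offset of 64 (limma adjusted p = 0.0595), arrays 1 and 2 alone (0.134) and the fit without knockdown array 1 (0.0551). The adjusted p there ranged from 0.000478 to 0.134. The suffix _s_at marks a probe set whose probes can match more than 1 transcript.

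Igfbp4, which encodes a binding protein that restrains IGF action until the protease PAPP-A cuts it, rose at 5 of its 6 probe sets. At the one of highest signal, 1437405_a_at, control arrays read 241, 290 and 287 and knockdown arrays 1227, 1008 and 1231. The lowest knockdown array was thus well above the highest control array, and the spread within each group was small. Igfbp4 rose there by 1.96 (SE 0.161, 95% confidence interval 1.58 to 2.35, limma adjusted p = 0.00272), which is 3.90-fold. Its partner on the same sequence, 1437406_x_at, gave 143, 172 and 175 in the control and 713, 615 and 728 in the knockdown, a rise of 1.89 (limma adjusted p = 0.00265). The suffix _x_at marks probes that can match other sequences. Both calls held in all 17 alternatives.

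The second pair of Igfbp4 probe sets gave a similar rise with more scatter. At 1423756_s_at control arrays read 129, 138 and 195 and knockdown arrays 844, 580 and 1139, a rise of 2.26 (SE 0.320, limma adjusted p = 0.0187). At 1423757_x_at they read 120, 120 and 148 against 598, 474 and 1027, a rise of 2.16 (SE 0.322, limma adjusted p = 0.0219). Knockdown array 3 was the highest at each of these. Without control array 1 and without knockdown array 1 neither passed (limma adjusted p of 0.0813 and 0.0938, and of 0.0897 and 0.0851). The former also did not pass without knockdown array 3 (limma adjusted p = 0.0574). The latter also did not pass without control array 2 (limma adjusted p = 0.0555) or with an offset of 64 (0.0609).

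The third pair, 1421992_a_at and 1421991_a_at, was dimmer. At 1421992_a_at control arrays gave 30.0, 49.4 and 23.5 and knockdown arrays 180, 149 and 399, a rise of 2.23 (limma adjusted p = 0.0290, 0.00449 to 0.117 over the alternatives). That call was lost in 8 of 17 alternatives. With all arrays kept these were an offset of 64 (limma adjusted p = 0.103), the replicate number as a block (0.0892) and the Gapdh covariate (0.0713). The call was also lost on arrays 1 and 2 alone (limma adjusted p = 0.0624). So it was without control array 1 or 3 (0.117 and 0.0994) and without knockdown array 1 or 2 (0.0917 and 0.0579). The sixth probe set, 1421991_a_at, did not pass, with 4.70, 9.64 and 1.23 in the control and 18.0, 21.2 and 77.2 in the knockdown (log2 difference 1.23, limma adjusted p = 0.219). Its groups were nevertheless apart, and knockdown array 3 stood far above the other arrays. All 6 Igfbp4 probe sets thus had the same sign, with differences from 1.23 to 2.26.

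Igfbp7, whose product is a secreted relative of the binding proteins that binds IGFs weakly, rose at 2 of 3 probe sets. At 1423584_at control arrays read 688, 425 and 326 and knockdown arrays 1369, 1050 and 1108. The knockdown arrays lay together above a broader control group, in which array 1 was highest. The log2 difference was 1.27 (SE 0.217, 95% confidence interval 0.75 to 1.79, limma adjusted p = 0.0346). At 1423585_at control arrays gave 11.7, 11.0 and 5.61 and knockdown arrays 35.5, 29.0 and 25.9. The rise there was 0.86 (SE 0.134, limma adjusted p = 0.0244), or 1.64 with an offset of 1 and 0.36 with an offset of 64. The third, 1437804_at, was below the offset, at 10.4 to 14.0 over all arrays, with a difference of 0.07.

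Neither Igfbp7 call was firm. At 1423584_at the adjusted p exceeded 0.05 in 12 of 17 alternatives, with a range of 0.00922 to 0.268, among them leaving out any 1 array except control array 1. At 1423585_at it did so in 7 of 17, with a range of 0.00971 to 0.122, among them leaving out any 1 array. The difference without 1 array stayed between 1.13 and 1.51 at the former and between 0.78 and 0.94 at the latter.

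Igfbp2, Igfbp5 and Igfbp6, the other binding proteins, had strong signals in both groups and no probe set that passed. Igfbp2 read 2787, 2649 and 1842 on control arrays and 2053, 1493 and 1999 on knockdown arrays, with 2 knockdown arrays above control array 3. After normalization the knockdown values lay just below the control values, with a log2 difference of -0.45 (95% confidence interval -0.85 to -0.06, limma adjusted p = 0.301). Igfbp5, which muscle cells make abundantly, read 2727, 3510 and 1627 in the control and 2892, 2436 and 2738 in the knockdown at 1452114_s_at. Its difference of 0.04 (95% confidence interval -0.48 to 0.57) turned to -0.17 without control array 3, which was the lowest array.

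The second Igfbp5 probe set, 1422313_a_at, read 42.8, 197 and 44.9 in the control and 25.8, 45.3 and 57.9 in the knockdown. Control array 2 alone stood apart there, and the difference of -0.73 became -0.17 without it. Igfbp6, whose product prefers IGF-II over IGF-I, read 544, 849 and 495 on control arrays and 768, 716 and 794 on knockdown arrays. The control values enclosed those of the knockdown, and the difference was 0.23 (95% confidence interval -0.17 to 0.63).

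**Figure D2:**
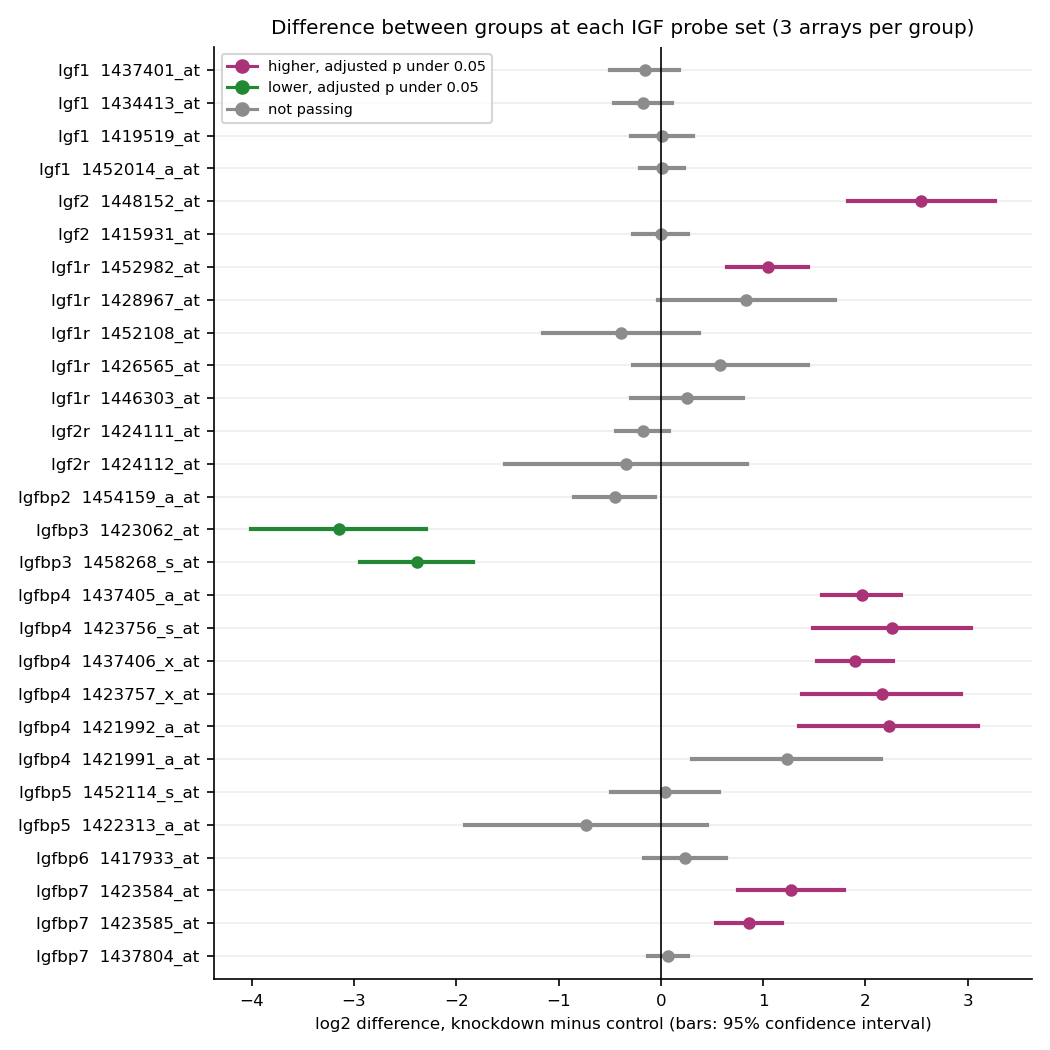
Log2 difference between knockdown and control (x axis, log2 units with an offset of 16) at each of the 28 IGF probe sets, with 95% confidence intervals from limma and 3 arrays per group. Igfbp3 stands at -3.15 and -2.39, the Igfbp4 probe sets between 1.23 and 2.26 and Igf2 1448152_at at 2.55, while the intervals of Igf1, Igf2r, Igfbp5 and Igfbp6 include 0.

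Since array 3 of each group had the low spike signal, differences were also taken within the 2 sets of arrays. All 11 passing probe sets kept their sign in both. Igf2 differed by 2.18 on arrays 1 and 2 and by 3.28 between the arrays numbered 3. Igfbp3 differed by -3.09 and -3.26 at 1423062_at and by -2.61 and -1.94 at 1458268_s_at. At Igfbp4 the brightest probe set gave 2.01 and 1.88, while 1421992_a_at gave 1.70 and 3.28. Igf1r 1452982_at gave 1.09 and 0.95 and Igfbp7 1423584_at gave 1.13 and 1.55. Some probe sets that did not pass changed sign between the sets: Igf2r 1424112_at differed by -1.06 and 1.10, and Igfbp5 1452114_s_at by -0.22 and 0.56. Between the arrays numbered 3 no test is possible.

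**Figure D3:**
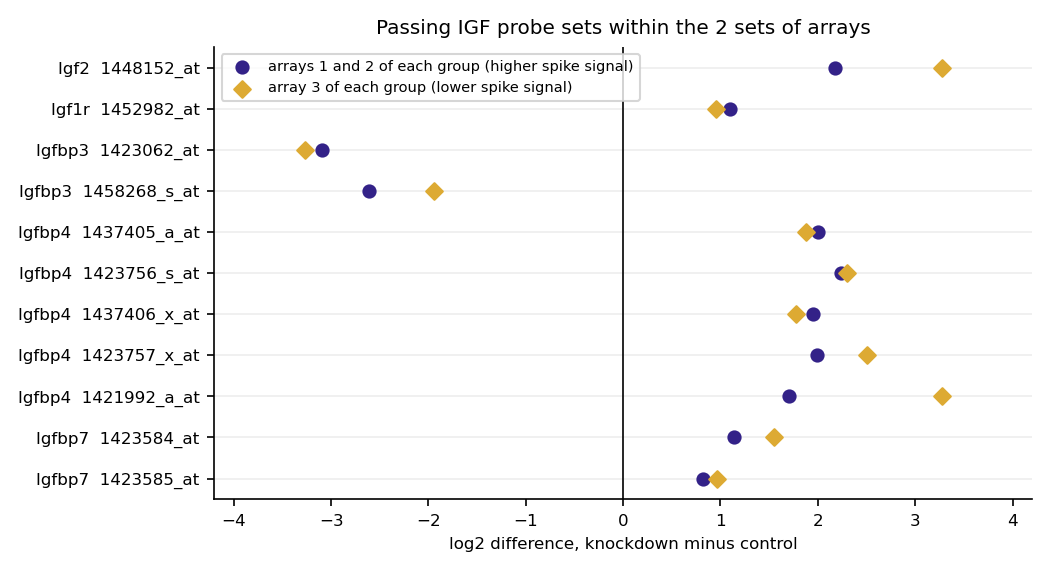
Log2 difference between knockdown and control (x axis) for the 11 passing IGF probe sets, within arrays 1 and 2 of each group (circles) and between the arrays numbered 3 (diamonds). Both symbols lie on the same side of 0 for every probe set, and Igf2 and Igfbp4 1421992_a_at are the most apart, at 2.18 and 3.28 and at 1.70 and 3.28.

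The number of passing member probe sets changed when arrays were left out. It also changed with all arrays kept: with an offset of 64, 5 rose and 1 fell, against 1.4% and 0.861% of all probe sets. Without control array 1, 2 or 3 the probe sets that rose numbered 4, 5 and 5, and without knockdown array 1, 2 or 3 they numbered 3, 5 and 4. The probe sets that fell numbered 1 without knockdown array 1, and 2 when any other array was left out. Over all probe sets the share that rose dropped as well, to between 0.721% and 1.47%, and the share that fell to between 0.392% and 1.18%. On arrays 1 and 2 alone 4 probe sets rose, all of Igfbp4, and 1 of Igfbp3 fell, against 0.441% and 0.197% of all probe sets.

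For each member with a passing probe set, the 3 genes of nearest profile over the 6 arrays were found among genes with a mean intensity of at least 16, by Euclidean distance between centred log2 values. For Igf2 these were Myl9, Actg2 and Tagln, with distances of 0.28, 0.48 and 0.48 and differences of 2.49, 2.64 and 2.27. For Igf1r they were Aif1l, Tcap and Naalad2 and for Igfbp4 Myom3, Aqp5 and Adam23. Igfbp7 was nearest to Ogn, Clip3 and Chrnb1, and Igfbp3 to Stmn4, Rnf144b and Clu, at distances of 0.23, 0.64 and 0.85. With 6 arrays in 2 groups, such likeness mostly restates a like difference between the groups.

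Beyond the members, 70 of 76 other genes of the pathway were measured, each by its probe set of highest mean. Of these 5 rose, 3 fell and 62 did not pass over 18193 genes, with a median log2 difference of 0.03. Over all genes 2.96% rose and 2.19% fell. Without 1 array 4 to 6 of them rose and 1 to 4 fell.

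Among 12 genes for relatives of the binding proteins, their proteases and the inhibitors of these, 2 rose and 1 fell. Adam12, a metalloprotease that cuts IGFBP-3 and IGFBP-5, read 14.3, 16.3 and 8.13 in the control and 128, 99.0 and 120 in the knockdown, and rose by 2.17 (SE 0.134, limma adjusted p = 0.000460). Its other probe set differed by 0.60 without passing. Kazald1, an IGFBP-related secreted protein, rose by 1.44 (SE 0.171, limma adjusted p = 0.00530). Stc2, an inhibitor of the IGFBP protease PAPP-A, read 171, 75.2 and 88.9 in the control and 31.0, 21.0 and 22.8 in the knockdown and fell by 1.62 (SE 0.268, limma adjusted p = 0.0194). Its 2 other probe sets fell by 1.50 and 2.48. The call of Stc2 was lost when control array 3 or any 1 knockdown array was left out, with adjusted p of up to 0.171 over the alternatives.

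None of 6 further receptors passed. Lrp1, an endocytic receptor, had means of 529 ± 175 and 1003 ± 232 (SD, n = 3; log2 difference 0.87, limma adjusted p = 0.112), and M6pr, the cation-dependent mannose 6-phosphate receptor, 558 ± 60.5 and 723 ± 60.5 (log2 difference 0.31, limma adjusted p = 0.197).

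Among 15 adaptors and feedback inhibitors, 2 fell and 0 rose. Irs1, the substrate that links the IGF-1 receptor to phosphoinositide 3-kinase, read 884, 783 and 371 on control arrays and 198, 180 and 201 on knockdown arrays. The knockdown arrays lay close together below the lowest control, and Irs1 fell by 1.72 (SE 0.234, limma adjusted p = 0.00937, or 0.0512 without knockdown array 1, and 0.000632 to 0.0512 over the alternatives). Grb14, an adaptor that inhibits the insulin receptor, read 85.4, 65.4 and 67.2 in the control and 8.19, 12.2 and 5.80 in the knockdown, and fell by 1.88 (SE 0.145, limma adjusted p = 0.000990). Its other probe set was at background.

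In the phosphoinositide 3-kinase and AKT list 1 of 13 measured genes rose and 0 fell. Phlpp1, a phosphatase that acts on AKT, rose by 0.69 (SE 0.126, limma adjusted p = 0.0284), a call lost in 10 of 17 alternatives, among them leaving out control array 1 or 3 or any knockdown array (0.00893 to 0.125).

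Of 18 measured mTOR and FoxO genes, 2 rose and 0 fell. Foxo1, a transcription factor that AKT keeps out of the nucleus, read 170, 172 and 191 in the control and 553, 489 and 486 in the knockdown and rose by 1.35 (SE 0.136, limma adjusted p = 0.00278). Of its other probe sets 1416981_at and 1416982_at rose by 1.58 and 1.51. Trim63, a muscle ubiquitin ligase and FoxO target, rose by 1.48 (SE 0.199, limma adjusted p = 0.00884), from 8.78 ± 5.16 to 53.6 ± 13.6 (SD, n = 3). Fbxo32, the related ligase atrogin-1, missed the threshold at its brightest probe set (log2 difference 1.51, limma adjusted p = 0.0508), whereas its 2 other probe sets rose by 1.37 and 1.99. Fbxo32, Foxo3 and Foxo4 were singled out after their values were seen. Foxo3 and Foxo4 did not pass, at log2 differences of -0.46 and 0.03 (limma adjusted p = 0.257 and 0.980).

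None of 6 measured genes of the Igf2 locus or of Igf2 mRNA binding and regulation passed. Hmga2, a chromatin protein that raises Igf2 mRNA-binding protein expression, and Ctcf, which insulates Igf2 at its imprinted locus, differed by -0.08 and 0.25.

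**Figure D4:**
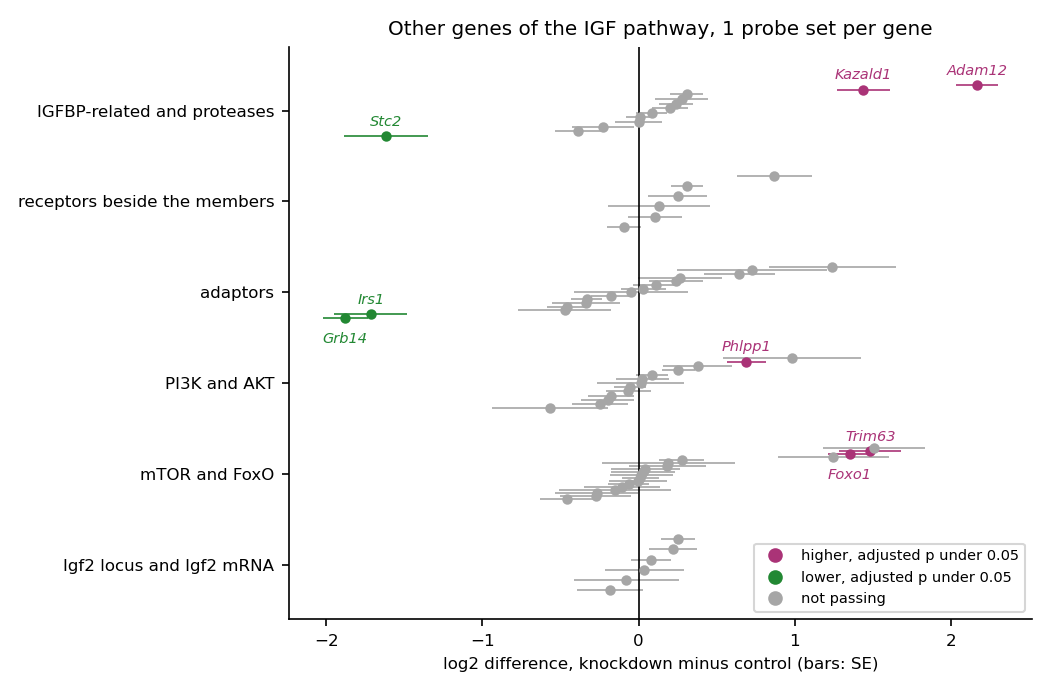
Log2 difference between knockdown and control (x axis, bars are SE) for 70 other genes of the IGF pathway, 1 probe set per gene, grouped by list (y axis; genes are spread vertically by value). Adam12, Kazald1, Foxo1, Trim63 and Phlpp1 lie to the right and Grb14, Irs1 and Stc2 to the left, while the other 62 did not pass.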

How the data were processed

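Total RNA of 6 samples, 8 µg each, was labelled as biotin cRNA and hybridised to Affymetrix mouse expression arrays, per the labels' protocols. The deposited values are linear intensities, 1 per probe set and array. Per the submitters' processing notes, GCOS and PLIER were used, with no version or setting stated, and the authors' normalization is unknown here. On the log2 scale with the offset, the column medians spanned 0.081, and the widest interquartile range was 15.1% above the narrowest. Another setting used the deposited values without further normalization. Of 45101 probe sets, 64 controls were set aside, and 932 with several gene symbols and 9160 with none were not tested. An offset of 16 was added, log2 taken and arrays quantile normalized. The groups were compared with limma 3.58.1 in R 4.3.3 (lmFit and eBayes), with Benjamini-Hochberg adjustment over 34945 probe sets, or over 18193 genes for the pathway lists, each gene by its probe set of highest mean. The threshold was an adjusted p of 0.05, and differences are knockdown minus control. The script was tested on simulated data. All members were named, and of each pathway list up to 4 passing genes or, where none passed, the 2 of highest mean. The members and lists were chosen with earlier results of these data known. Alternatives were no further normalization, median centring, offsets of 1 and 64, a filter on low values, other variance models, blocks, a Gapdh covariate, arrays 1 and 2 only and each array left out. The number of arrays limits the precision.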

Additional observations from a re-analysis of the deposited data

How the results depend on the processing

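The alternatives were run for the 22 member probe sets at or above the offset, not for the 6 below it (4 of Igf1, 1 of Igf2 and 1 of Igfbp7). Of these values 319 kept their direction and their side of the threshold, 51 kept their direction but no longer passed, and 4 turned. The turned values were all of probe sets that did not pass: Igfbp5 1452114_s_at at -0.21 on arrays 1 and 2 alone, -0.13 with the Gapdh covariate and -0.17 without control replicate 3 (limma adjusted p = 0.839, 0.868 and 0.851), and Igf2r 1424112_at at 0.16 without control replicate 2 (limma adjusted p = 0.886). With an offset of 64, 5 member probe sets rose and 1 fell, and 488 and 301 of all probe sets rose and fell. With array weights 8 of 70 pathway genes rose and 6 fell. Of all probe sets 3.37% rose and 2.63% fell (1178 and 919), against 1.81% and 1.29% in the fit reported (631 and 452). Counts of genes in this paragraph were adjusted over genes, so the probe set numbers beside them differ in unit and are for scale only. On arrays 1 and 2 alone, 4 member probe sets rose and 1 fell, 1 member gene rose and 0 fell, and 154 and 69 of all probe sets rose and fell. Leaving out 1 replicate left 3 to 5 member probe sets that rose and 1 to 2 that fell, 2 to 4 member genes that rose, 4 to 6 pathway genes that rose and 1 to 4 that fell, and 252 to 512 of all probe sets that rose and 137 to 411 that fell. Over these fits Igf2r 1424112_at ranged from -0.80 to 0.16 and Igfbp5 1452114_s_at from -0.17 to 0.26. The cause was not tested beyond fewer arrays entering these fits. The labels do not say whether replicate numbers pair the samples, and the arrays do not settle it. Arrays numbered 1, 2 and 3 deviated together with r = 0.368, 0.0645 and -0.0414, and only number 1 correlated best with its own number. The arrays numbered 3 shared a low Dap spike signal, at 39.9 and 38.8. The replicate block ended the calls of Igf1r 1452982_at, Igfbp4 1421992_a_at and Phlpp1 (limma adjusted p = 0.101, 0.0892 and 0.0520). With it 7 member probe sets rose and 2 fell, 5 pathway genes rose and 3 fell, 3 member genes rose and 1 fell, and 353 and 237 of all probe sets rose and fell. Probe sets near background, Igf1 among them, limit what the arrays can show.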

Other observations

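Antisense transcripts of the ligand genes were looked at after the member values had been seen. Igf2os read 9.25 ± 2.43 on control and 9.75 ± 1.24 on knockdown arrays (SD, n = 3), a log2 difference of 0.04 (limma adjusted p = 0.953). Igf1os read 2.45 ± 1.07 and 1.39 ± 0.955, a log2 difference of -0.08 (limma adjusted p = 0.825). Both lay below the offset in both groups, so neither gives a usable level.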
